A study of Mus musculus with 36 samples.

Results

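The genes described here encode the nuclear-encoded subunits of the mitochondrial respiratory chain and of ATP synthase. Members were taken by symbol, as names that start with Nduf, Uqcr, Cox followed by a digit from 4 to 8, or Atp5, together with Sdha, Sdhb, Sdhc, Sdhd and Cyc1. Symbols that contain -ps, which mark pseudogenes, were left out, and a member had to reach a mean of 1 FPKM (fragments counted per kilobase of transcript and scaled to the depth of the library) over the 36 libraries. In all, 96 symbols matched, 5 of them carried -ps, and 82 of the 91 that remained passed the level, out of 27562 genes listed and 13307 genes that reached the same mean. Of the 5 left out, Atp5k-ps2 had a mean of 19.2 FPKM (0 to 54.6 over the libraries) and Uqcrh-ps1 8.96 FPKM (0 to 26.8). The rest had means under 1 FPKM. Whether these entries take up reads of Atp5k and Uqcrh was not tested. The name pattern also brought in 8 assembly factors (Ndufaf1, Ndufaf2, Ndufaf3, Ndufaf4, Ndufaf5, Ndufaf7, Atp5sl and Cox7a2l), which are described apart from the 35 subunits of complex I, 4 of complex II, 9 of complex III, 12 of complex IV and 14 of complex V.

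Respiratory complexes I to IV pass electrons from NADH and succinate to oxygen, and complexes I, III and IV pump protons across the inner mitochondrial membrane. Complex V, the ATP synthase, lets the protons flow back and makes ATP. All subunits of complex II and most subunits of the other complexes are encoded in the nucleus and imported, while a small core is encoded in mitochondrial DNA. Alveolar macrophages (AΦ) live in the lipid-rich alveolar lining and are known for oxidative metabolism, whereas monocytes are short-lived cells that come from the bone marrow.

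RNA-seq had been carried out on AΦ and monocytes sorted from the lungs of lung-shielded chimeric mice that inhaled concentrated ambient particulate matter (PM2.5) or filtered air (FA) for 4 or 32 weeks. Recipients were male C57BL/6J mice (CD45.2) of 7 to 8 weeks at irradiation, with the chest under a lead shield, followed by busulfan and by bone marrow from B6.SJL-Ptprc(a) Pepc(b)/BoyJ donors (CD45.1), so that all groups, FA controls included, share irradiation, busulfan and transplantation. CD45.2 AΦ are called tissue-resident (TR-AΦ) and CD45.1 AΦ bone marrow-derived (BM-AΦ). The 12 groups of 3 libraries were TR-AΦ, and CD45.2 monocytes, under FA or PM2.5 at 4-weeks, and TR-AΦ, BM-AΦ, CD45.2 monocytes and CD45.1 monocytes under FA or PM2.5 at 32-weeks. No CD45.1 cells of the 4-weeks exposure are among these libraries, and the CD45 type of the 32-weeks monocyte groups was read with the same key as for AΦ, which is an assumption. AΦ were gated as CD64+ CD11c high CD11b low cells and monocytes as Ly6G- MHC II- CD64 low CD11b high cells. In the donor-derived groups the CD45.1 type marks descent from the graft, and CD45.2 monocytes descend from the host. Per the paper's methods, nearly all circulating monocytes of the chimeras used were of donor type, so host monocytes were a small part of those in blood. The comparisons with CD45.2 monocytes, all those at 4-weeks included, rest on such host cells.

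The sorted identities were checked against marker genes. The summed level of 12 AΦ markers ran from 6883 to 14380 FPKM in the 18 AΦ libraries and from 283 to 1719 FPKM in the 18 monocyte libraries, and 12 of 12 were higher in AΦ in each of the 3 cell type comparisons. The summed level of 11 monocyte markers ran from 112 to 586 FPKM in AΦ and from 1364 to 5013 FPKM in monocytes, and 11 of 11 were lower in AΦ. Neutrophil markers summed to between 12 and 68.3 FPKM in AΦ and between 33.1 and 1158 FPKM in monocytes, and their part in the results on the respiratory chain was not tested. In bulk libraries fewer cells of a type and less RNA per cell cannot be told apart. The files give no read counts, so that the absolute depth reached by each library is unknown. A relative depth estimated from the FPKM values ran from 0.71 to 1.86 in AΦ (median 1.09) and from 0.57 to 1.44 in monocytes (median 0.87). Its part in the results, low levels and zeros included, was not tested. Between 15171 and 18244 genes had a level above 0 in a library.

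Promoter sequences are shown for 4 members on which the results turn: Cox6b2 and Atp5g3, which were higher in AΦ, Cox7a2l, which was lower in AΦ on the FPKM scale, and Uqcr11, which was higher in AΦ in 2 comparisons and rose in 32-weeks monocytes. They come from RefSeq (GRCm38.p6) and lie on the minus strand, written 5′ to 3′ up to the annotated start (for Uqcr11 a few bases past it), at chr7:4753095-4753225 (Cox6b2), chr2:73911327-73911576 (Atp5g3), chr17:83514334-83514583 (Cox7a2l) and chr10:80406819-80407071 (Uqcr11). For Cox7a2l, unlike the others, the bases right after this start were not found in its GENCODE protein-coding transcripts, so its start is less certain. Capitals mark matches to the letters searched.
Cox6b2: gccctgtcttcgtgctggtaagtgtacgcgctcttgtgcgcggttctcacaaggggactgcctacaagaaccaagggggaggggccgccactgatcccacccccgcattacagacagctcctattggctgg
Atp5g3: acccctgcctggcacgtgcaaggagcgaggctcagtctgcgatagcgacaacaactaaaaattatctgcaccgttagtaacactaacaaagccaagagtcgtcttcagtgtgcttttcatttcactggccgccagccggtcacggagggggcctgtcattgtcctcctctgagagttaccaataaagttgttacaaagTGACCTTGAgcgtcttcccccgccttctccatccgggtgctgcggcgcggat
Cox7a2l: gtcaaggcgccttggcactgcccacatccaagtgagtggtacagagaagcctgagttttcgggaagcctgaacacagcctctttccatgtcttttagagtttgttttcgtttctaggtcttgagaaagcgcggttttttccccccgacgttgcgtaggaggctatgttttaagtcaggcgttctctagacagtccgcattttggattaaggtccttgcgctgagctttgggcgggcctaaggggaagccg
Uqcr11: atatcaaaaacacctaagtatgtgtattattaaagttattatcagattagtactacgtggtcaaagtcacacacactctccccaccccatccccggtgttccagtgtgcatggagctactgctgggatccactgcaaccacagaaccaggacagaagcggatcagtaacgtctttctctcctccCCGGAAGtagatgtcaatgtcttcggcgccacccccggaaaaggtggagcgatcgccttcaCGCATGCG

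Windows of 300 bases, from 250 before to 50 after the start, were found for 70 of the 82 members (76 windows) and were searched on both strands for 4 short letter strings named after factors known to act on respiratory genes. The NRF1 letters, GCATGCG or CGCATGC, whose matches overlap within CGCATGCG, were in 12 of the 76 windows (15.8%) and in 3.58% of all 32851 windows. ETS letters, CCGGAAG or CTTCCGG, were in 17 windows (22.4%, against 8.86%), and YY1 letters, AAGATGGCG or CGCCATCTT, were in 9 (11.8%, against 1.40%). The ERR letters, TCAAGGTCA or TGACCTTGA, were in 2 windows, those of Atp5g3 and Sdhd (2.63%, against 0.423%). Member windows had a median GC content of 58.0%, and all windows 52.7%. In the Atp5g3 window the capitals are the ERR letters, and in the Uqcr11 window they are the ETS and then the NRF1 letters. The Cox6b2 and Cox7a2l windows held none of the 4 strings. These matches describe the letters only.

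The median over the 82 members of the mean level in 36 libraries was 25.5 FPKM, against 8.43 FPKM over the 13307 genes tested. In complex I the highest member was Ndufa6, at 84.1 FPKM. The highest of complex II was Sdhd (70.7 FPKM), of complex III Uqcrb (90.7 FPKM), of complex IV Cox6c (244 FPKM) and of complex V Atp5e (94 FPKM). Ndufa11 (2.32 FPKM), Ndufaf4 (2.35 FPKM) and Ndufaf5 (2.5 FPKM) were among the lowest members. Ndufaf6 (0.966 FPKM), Atp5s (0.887 FPKM) and Ndufb4 (0.880 FPKM) lay just under the level cutoff. FPKM is per length, so these levels can be set side by side, but 45 of the 82 members share stretches of 50 bases with other genes, and for Atp5l 84.9% of its stretches are shared.

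Paralogs of one subunit differed widely in level. Of the Cox4 pair, Cox4i1 had a mean of 64.7 FPKM and Cox4i2, known as a lung isoform, 0.0589 FPKM. Of the Cox6a pair, Cox6a1 reached 101 FPKM and the heart and muscle form Cox6a2 0.204 FPKM. Likewise Cox7a2 had 25.3 FPKM and the muscle form Cox7a1 0.166 FPKM, and Ndufa4 had 19.9 FPKM and Ndufa4l2, known as a hypoxia-induced paralog, 0.00811 FPKM. Among the genes for the c subunit of ATP synthase, Atp5g3 had 66.8 FPKM, Atp5g1 9.01 FPKM and Atp5g2 0.20 FPKM. Cox6b1 had 88.5 FPKM and its paralog Cox6b2, known from testis, 9.4 FPKM. In each pair 1 form held most of the level, and Cox6b2 was the only minor form above the level cutoff in the Cox4, Cox6a, Cox6b and Cox7a pairs.

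The summed level of the 82 members was 3647 ± 402 FPKM (SD, n = 18) in AΦ and 2903 ± 259 FPKM (SD, n = 18) in monocytes. The lowest, median and highest library were 2711, 3624 and 4324 FPKM in AΦ and 2582, 2906 and 3400 FPKM in monocytes, so that the ranges overlapped. As a share of the library's summed FPKM the members took 0.122, 0.173 and 0.208% in AΦ and 0.0812, 0.116 and 0.130% in monocytes, again with overlapping ranges. Among AΦ groups the sum was lowest in TR-AΦ at 4-weeks, with 3466 ± 322 FPKM under FA and 3129 ± 390 FPKM under PM2.5 (SD, n = 3 each). It was 3686 ± 258 FPKM (FA) and 3729 ± 347 FPKM (PM2.5) in TR-AΦ and 3898 ± 304 FPKM (FA) and 3972 ± 347 FPKM (PM2.5) in BM-AΦ at 32-weeks. Monocyte groups had means between 2757 FPKM (CD45.2, FA, 4-weeks) and 3112 FPKM (CD45.1, FA, 32-weeks). Neighbouring groups in this order lay within the spread of their libraries.

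**Figure D1:**
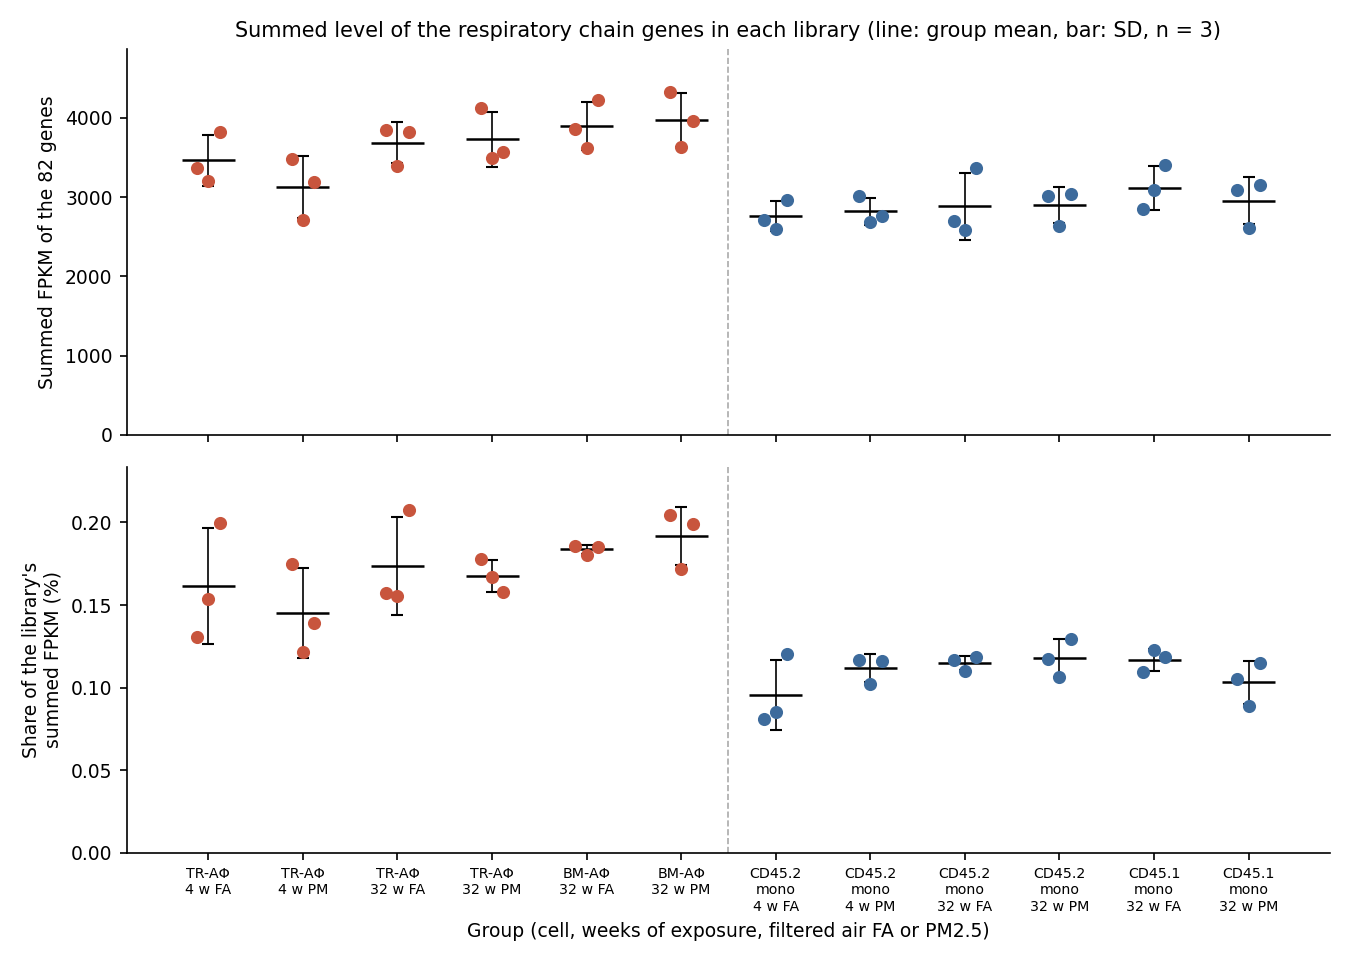
Summed FPKM of the 82 respiratory chain genes (top, y axis in FPKM) and their share of the summed FPKM of the library (bottom, y axis in percent), with 1 point per library, a line at the group mean and a bar of 1 SD (n = 3) for the 12 groups on the x axis. AΦ libraries (red) range from 2711 to 4324 FPKM and monocyte libraries (blue) from 2582 to 3400 FPKM.

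To ask how the respiratory chain differs between AΦ and monocytes, TR-AΦ and BM-AΦ were compared with monocytes of the same CD45 type and time. Each side had 6 libraries (FA and PM2.5 groups averaged). They were treated as separate samples, though the 2 sides may come from the same mice. More members were higher in AΦ than lower. At 4-weeks (CD45.2) 30 members were higher (36.6%) and 3 lower (3.66%), against 22.6% and 25.5% of all genes tested (limma on log2(FPKM + 1), Benjamini-Hochberg adjusted p under 0.05). At 32-weeks 37 were higher (45.12%) and 2 lower (2.44%) in CD45.2 cells, against 23.6% and 23.7% of all genes. In CD45.1 cells at 32-weeks 42 were higher (51.2%) and 4 lower (4.88%), against 27.1% and 23.8%. Median log2 differences over the members were 0.30, 0.43 and 0.44, against -0.02, 0.00 and 0.03 over all genes tested, and 66, 71 and 74 of the 82 members had a difference above 0.

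The split depended on how libraries were put on a common scale. The summed FPKM of a library ran from 1839577 to 2580779 in AΦ and from 2320650 to 3339020 in monocytes. After rescaling each library to the same total (TPM), 57 members were higher and 2 lower at 4-weeks, 55 and 1 in CD45.2 cells at 32-weeks, and 69 and 1 in CD45.1 cells. These counts cannot be read against the shares of all genes above, which are on the FPKM scale, and the matching TPM shares are not given here. That rescaling also moved the median difference of all genes, to 0.17, 0.11 and 0.29, and the share of higher genes among all genes called from 47.0, 49.9 and 53.2% to 66.6, 61.6 and 74.7%. Relative to the median of all genes, the members' median was then 0.41, 0.43 and 0.45.

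Overlap between libraries gave a narrower set. All 6 AΦ libraries lay above all 6 monocyte libraries for 13 members at 4-weeks, 20 in CD45.2 cells at 32-weeks and 19 in CD45.1 cells. For all genes this was the case in 13.6, 12.9 and 16.1%. The share of members was close to that of all genes at 4-weeks and larger at 32-weeks. All 6 lay below for 2, 2 and 1 members, against 16.1, 14 and 14.7% of all genes. Over the 18 AΦ and 18 monocyte libraries together, 3 members (Atp5g3, Sdha and Cox6b2) had no overlap in the direction of AΦ. That is a smaller share of the members than the 5.84% of all genes. In the direction of monocytes 0 members had no overlap, against 6.19% of all genes.

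Across the 3 comparisons 20 members were higher in AΦ in all 3 (24.4%), 16 in 2 (19.5%), 17 in 1 (20.7%), and 25 passed in none (30.5%). Of all genes tested, 15.7% were higher in all 3, 8.50% in 2, 9.22% in 1, and 33.9% passed in none. A further 2 members were lower in all 3, 1 in 2 and 1 in 1, against 16.8, 6.17 and 10.4% of all genes, and 0 passed in opposite directions, against 0.594%. The 20 comprised 8 of 35 complex I subunits (among them Ndufa5, Ndufab1, Ndufs1 and Ndufv1), 2 of 4 of complex II (Sdha and Sdhc) and 2 of 9 of complex III (Uqcrb and Cyc1). They also comprised 3 of 12 subunits of complex IV (Cox5a, Cox6b2 and Cox6c), 3 of 14 of complex V (Atp5a1, Atp5b and Atp5g3) and 2 of 8 assembly factors (Ndufaf1 and Ndufaf4). The 25 that passed in none, listed after their values were seen, had log2 differences from -0.55 to 0.63. They were Ndufa3, Ndufa7, Ndufa13, Ndufb3, Ndufb5, Ndufb10 and Ndufs4 of complex I, Sdhb of complex II, and the core proteins Uqcrc1 and Uqcrc2, the Rieske iron-sulfur protein Uqcrfs1 and Uqcrh of complex III. Those of complex IV were Cox4i1, Cox5b, Cox7a2, Cox7c and Cox8a, those of complex V were Atp5c1, Atp5d, Atp5f1, Atp5h, Atp5j2, Atp5k and Atp5l, and the last was Atp5sl. Complex II had the highest median log2 difference of the 5 complexes in each comparison, at 0.51, 0.57 and 0.79 over its 4 genes, and complex V was at 0.18, 0.42 and 0.35 over 14.

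**Figure D2:**
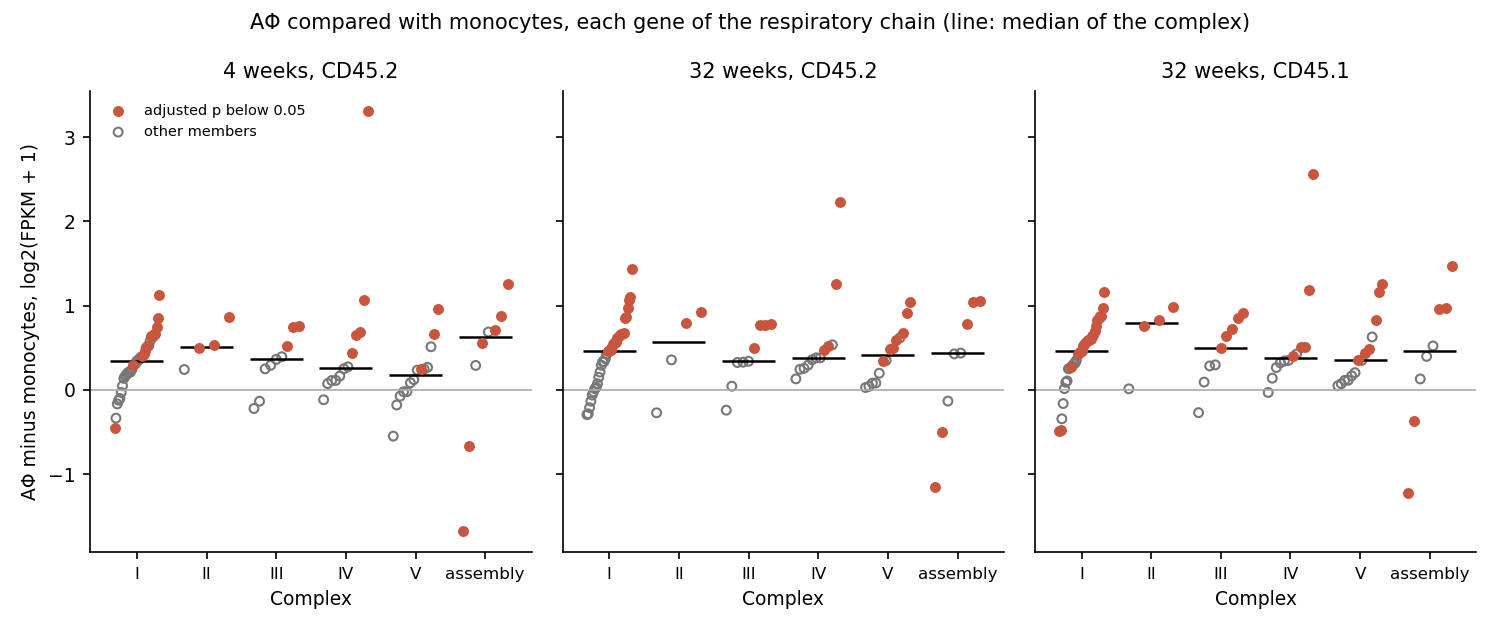
Log2 difference of AΦ over monocytes (y axis, log2(FPKM + 1) scale) for each of the 82 genes in the 3 comparisons, grouped by complex or assembly factor on the x axis, with filled points for genes past the limma threshold. Most points lie above 0 in every complex, and the lowest point in each comparison is the assembly factor Ndufaf7 (-1.68, -1.15 and -1.22).

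In complex I, the NADH dehydrogenase, 12 of 35 subunits were higher in AΦ at 4-weeks, 17 in CD45.2 cells and 20 in CD45.1 cells at 32-weeks, and 1, 0 and 2 were lower. The shares higher were 34.3, 48.6 and 57.1%, against the 22.6, 23.6 and 27.1% of all genes called higher. Ndufs1, an iron-sulfur subunit of the peripheral arm, was at 15.6, 18.2 and 23.2 FPKM (lowest, median and highest of 6) in AΦ and 8.87, 11.1 and 16.2 FPKM in monocytes at 4-weeks. The groups overlapped there in their nearest libraries, and its log2 differences in the 3 comparisons were 0.64, 1.06 and 0.86 (SE 0.17 each). Ndufv1, the NADH-binding flavoprotein, differed by 0.63, 0.61 and 0.65 (SE 0.12 each). Ndufa5, a supernumerary subunit, showed no overlap at 4-weeks, with 11.4, 18.5 and 23.4 FPKM in AΦ against 6.37, 7.3 and 9.94 FPKM in monocytes (1.12 ± 0.16 (SE), limma adjusted p = 1.97e-06). Ndufab1, the mitochondrial acyl carrier protein, had the largest difference of complex I in CD45.2 cells at 32-weeks, with 9.78, 12 and 19.2 FPKM in AΦ against 1.9, 4.99 and 6.82 FPKM in monocytes (1.44 ± 0.22 (SE), limma adjusted p = 4.09e-06). Among assembly factors of complex I, Ndufaf1 was at 3.86, 5.9 and 7.6 FPKM in BM-AΦ against 0.734, 0.929 and 2.96 FPKM in CD45.1 monocytes, and it differed by 1.26, 1.05 and 1.47 (SE 0.24 each).

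In complex II, the succinate dehydrogenase that also belongs to the TCA cycle, the flavoprotein Sdha and the membrane anchor Sdhc were higher in all 3 comparisons. Sdha was at 56.7, 64.2 and 81.2 FPKM in AΦ and 41.6, 44.1 and 51.4 FPKM in monocytes at 4-weeks, with no overlap, and differed by 0.53, 0.79 and 0.76 (SE 0.13 each). Sdhc was at 45.17, 52.9 and 67.1 FPKM and 20.2, 33.8 and 37.2 FPKM and differed by 0.87, 0.92 and 0.99 (SE 0.16 each). The other anchor, Sdhd, passed at 4-weeks (0.50 ± 0.15 (SE), limma adjusted p = 0.00901) and in CD45.1 cells (0.83 ± 0.15 (SE), limma adjusted p = 5.73e-05), while its value in CD45.2 cells at 32-weeks was 0.36 ± 0.15 (SE) with a limma adjusted p of 0.0599. Sdhb, the iron-sulfur subunit, did not pass, with 0.24, -0.27 and 0.01 (SE 0.14 each), and its mean level of 3.41 FPKM was the lowest of the 4.

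In complex III, which passes electrons from ubiquinol to cytochrome c, 3, 4 and 5 of 9 subunits were higher (33.3, 44.4 and 55.6%, against 22.6, 23.6 and 27.1% of all genes) and 0 lower. Uqcrb, a supernumerary subunit, was at 84.6, 109 and 135 FPKM in AΦ and 46.1, 65.8 and 85.3 FPKM in monocytes at 4-weeks and differed by 0.76, 0.77 and 0.91 (SE 0.17 each), and 43.4% of its 50-base stretches are shared with other genes. Cyc1, cytochrome c1, was at 10.8, 14.1 and 19.1 FPKM and 6.31, 10.1 and 11.4 FPKM, with overlap, and differed by 0.52, 0.50 and 0.63 (SE 0.15 each). Uqcr11 differed by 0.75 ± 0.18 (SE) at 4-weeks and 0.85 ± 0.18 (SE) in CD45.1 cells, and by 0.34 ± 0.18 (SE) in CD45.2 cells at 32-weeks, where the limma adjusted p was 0.132.

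In complex IV, cytochrome c oxidase, 5, 4 and 5 of 12 subunits were higher (41.7, 33.3 and 41.7%, against the same shares of all genes) and 0 lower. Cox6b2 had the largest difference of all members. At 4-weeks it was at 11.7, 17.9 and 33.5 FPKM in AΦ and 0, 0.732 and 4.66 FPKM in monocytes, a ratio of means of 13.8 (3.304 ± 0.52 (SE) on the log2 scale, limma adjusted p = 5.74e-06). In CD45.2 cells at 32-weeks the values were 9.71, 15.6 and 21.3 FPKM and 0, 3.86 and 6.93 FPKM, a ratio of 4.54, and in CD45.1 cells 10.2, 14.1 and 15.3 FPKM and 0, 1.9 and 5.3 FPKM, a ratio of 6.5. Every AΦ library was above every monocyte library, of which 5 list Cox6b2 at 0, so these ratios rest on low monocyte levels. None of its 50-base stretches is shared with another gene, and it lies at chr7:4751792-4753094.

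The abundant paralog Cox6b1 differed by 0.65, 0.26 and 0.50 (SE 0.19 each), with limma adjusted p-values of 0.00466, 0.273 and 0.026. Cox5a, a matrix-side subunit, was at 24.3, 30.7 and 44.2 FPKM in AΦ and 7.27, 13.6 and 16 FPKM in monocytes of CD45.2 cells at 32-weeks (ratio of means 2.48) and differed by 1.07, 1.26 and 1.19 (SE 0.18 each). No library overlapped in any of the 3 comparisons, and 32.1% of its 50-base stretches are shared. Cox6c, the most abundant member, differed by 0.44, 0.48 and 0.40 (SE 0.15 each), from 181, 203 and 231 FPKM in 4-weeks monocytes to 232, 277 and 332 FPKM in AΦ. In contrast Cox4i1, the abundant form of its pair, had differences of 0.16, 0.24 and 0.14 (SE 0.13 each) and Cox8a 0.07, 0.36 and 0.34 (SE 0.17 each), and neither passed in any comparison. Cox6a1 passed in CD45.1 cells (0.51 ± 0.19 (SE), limma adjusted p = 0.0243).

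In complex V, 3, 7 and 6 of 14 subunits were higher and 0 lower. The share higher at 4-weeks (21.4%) was no larger than that of all genes (22.6%), and those at 32-weeks were 50% and 42.9%, against 23.6 and 27.1%. Atp5g3, which encodes the c subunit of the rotating ring, was at 62.1, 82.4 and 85.6 FPKM in AΦ and 35.7, 41 and 41.9 FPKM in monocytes at 4-weeks, with a ratio of means of 1.98. At 32-weeks it was at 86.1, 92.8 and 102 FPKM and 38.5, 48.1 and 60.7 FPKM in CD45.2 cells and at 84.2, 101 and 117 FPKM and 33.3, 40.2 and 53.8 FPKM in CD45.1 cells. Its log2 differences were 0.96, 0.92 and 1.26 (SE 0.10 each), with limma adjusted p-values of 1.01e-08, 2.96e-08 and 7.88e-11. The paralog Atp5g1 passed at 32-weeks (1.04 ± 0.29 (SE) and 1.17 ± 0.29 (SE)) and had a value of 0.51 ± 0.29 (SE) at 4-weeks (limma adjusted p = 0.146). Of the catalytic F1 head, the beta subunit Atp5b differed by 0.66, 0.67 and 0.83 (SE 0.09 each) and the alpha subunit Atp5a1 by 0.24, 0.34 and 0.35 (SE 0.09 each).

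**Figure D3:**
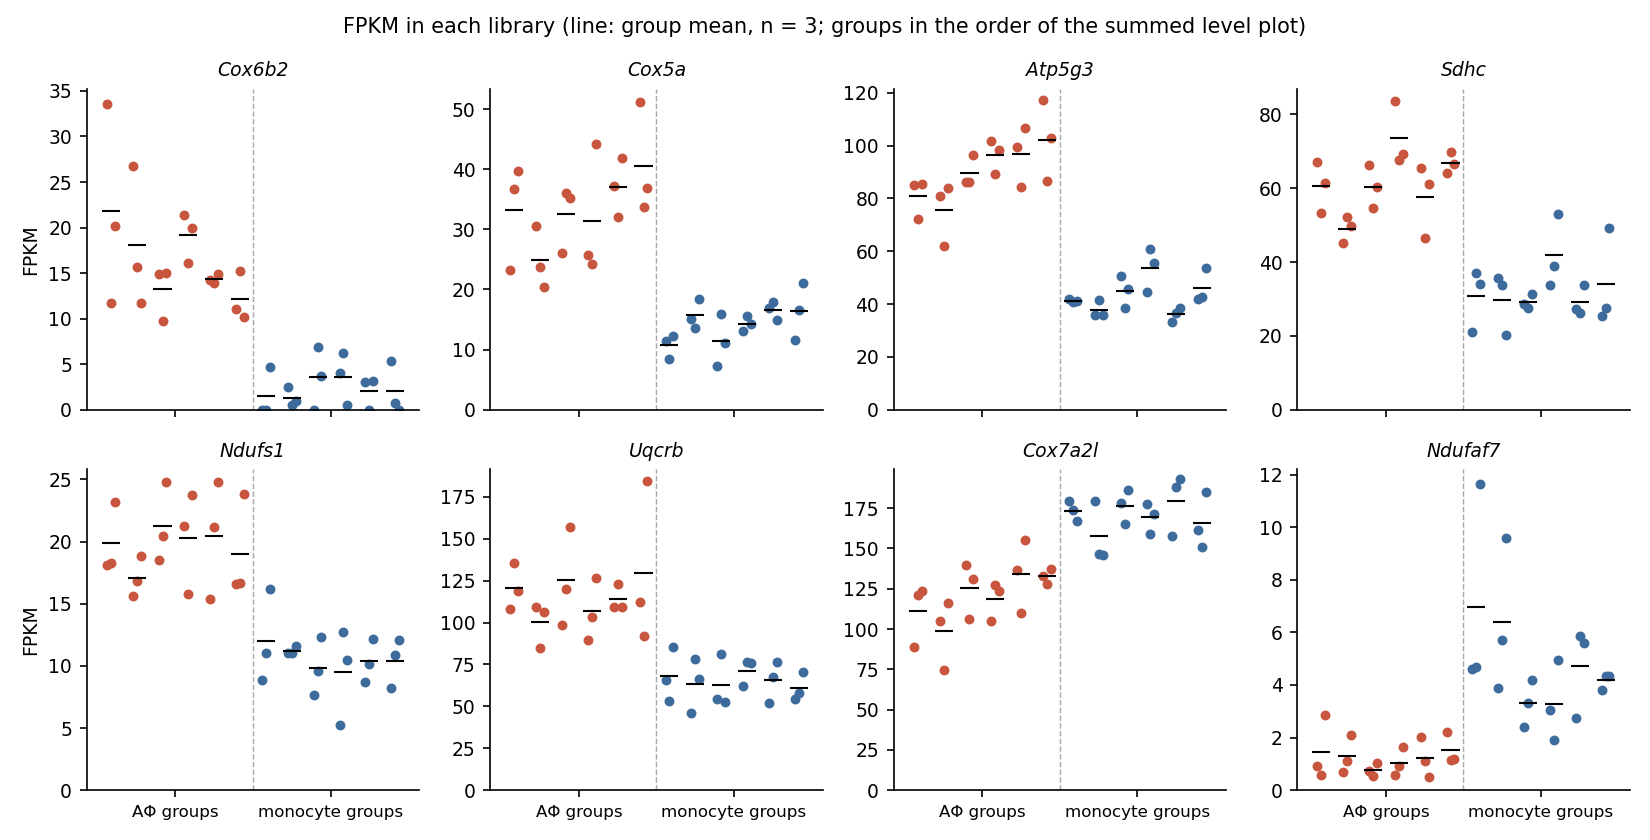
FPKM (y axis) of 8 respiratory chain genes in each of the 36 libraries, with 1 point per library and a line at the group mean (n = 3), AΦ groups in red and monocyte groups in blue on the x axis. Cox6b2 and Atp5g3 show no overlap between cell types, Ndufaf7 is higher in monocytes, and Cox7a2l is higher in monocytes on this scale, a direction that turns in CD45.1 cells after TPM rescaling (0.03).

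Few members were higher in monocytes. Ndufaf7, a methyltransferase that acts in complex I assembly, was at 0.582, 1.01 and 2.87 FPKM in AΦ and 3.9, 5.19 and 11.6 FPKM in monocytes at 4-weeks, a ratio of means of 0.206 with no overlap. It differed by -1.68, -1.15 and -1.22 (SE 0.26 each), with limma adjusted p-values of 5.01e-06, 0.000611 and 0.000318. Cox7a2l, which helps join complexes III and IV into supercomplexes, was the most abundant of the lower members, at 74.5, 111 and 123 FPKM in AΦ and 146, 170 and 180 FPKM in monocytes at 4-weeks. Its differences were -0.67, -0.50 and -0.37 (SE 0.11 each) on the FPKM scale, and after TPM rescaling it did not pass at 32-weeks in CD45.2 cells (-0.32) or CD45.1 cells (0.03, the opposite direction). A share of 17.8% of its 50-base stretches is found in other genes, Gm6969 foremost.

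The other members lower in AΦ were complex I subunits. Ndufb11 passed at 4-weeks (-0.45 ± 0.17 (SE)) and in CD45.1 cells (-0.48 ± 0.17 (SE)), and Ndufa6 passed in CD45.1 cells (-0.49 ± 0.16 (SE)), and neither passed after TPM rescaling. Across the 36 libraries, these 4 members, Uqcrh and Ndufb3 were the 6 with a negative correlation to the mean of the other members (Ndufaf7 -0.665, Cox7a2l -0.510, Ndufa6 -0.416, Ndufb11 -0.313, Uqcrh -0.126 and Ndufb3 -0.0832). After centring on group means the same 6 had positive correlations (0.385, 0.458, 0.191, 0.330, 0.635 and 0.20). The median correlation over pairs of members was 0.333 over 36 libraries and 0.140 after centring. All values of a library share its scale and its depth, so these correlations are a description only.

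Other mitochondrial genes are given from lists written with earlier results known, to be read against the 22.6, 23.6 and 27.1% of all genes called higher and the 25.5, 23.7 and 23.8% called lower in the 3 comparisons. Of 38 other assembly factors, 13, 17 and 17 were higher in AΦ (34.2, 44.7 and 44.7%) and 2, 0 and 2 lower. Sco2, a copper chaperone of complex IV, was higher by 1.28, 0.72 and 1.39 (SE 0.18 each). Of 22 genes for electron carriers and for ADP, ATP and phosphate transport, 9, 13 and 12 were higher (40.9, 59.1 and 54.5%) and 6, 2 and 2 lower (27.3, 9.09 and 9.09%). Atpif1, the inhibitor of ATP synthase, ranged from 89.5 to 219 FPKM in AΦ and from 39.6 to 89 FPKM in monocytes at 4-weeks and was higher by 1.48, 0.83 and 1.13 (SE 0.19 each). Slc25a4, an ADP/ATP carrier, was higher by 1.23, 0.77 and 0.99, and Coq10b, which binds coenzyme Q, was lower (log2 differences of -1.47, -1.10 and -0.93).

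Of 19 genes of the TCA cycle and pyruvate dehydrogenase, 8, 8 and 10 were higher (42.1, 42.1 and 52.6%) and 2, 1 and 1 lower. Mpc2, a mitochondrial pyruvate carrier subunit, was higher by 0.81, 1.67 and 1.31 (SE 0.17 each), while Pdha1, of pyruvate dehydrogenase, was lower (-1.21, -0.53 and -0.64, SE 0.19 each). Of 15 regulators of mitochondrial biogenesis, 4, 5 and 5 were higher (26.7, 33.3 and 33.3%) and 4, 3 and 5 lower (26.7, 20 and 33.3%), shares near those of all genes. The coactivator Ppargc1b was higher by 1.77, 0.94 and 1.57 (SE 0.24 each), and Pparg, a nuclear receptor needed for AΦ and counted among the AΦ markers too, by 1.03, 3.13 and 3.05 (SE 0.30 each). The mitochondrial DNA polymerase Polg was lower (-0.68, -0.89 and -0.86, SE 0.10 each). Of 17 genes that mark mitochondrial mass, 8, 8 and 10 were higher (47.1, 47.1 and 58.8%) and 0 lower in each comparison, among them Cisd1, an outer membrane iron-sulfur protein (1.25, 1.83 and 1.57, SE 0.25 each). After TPM rescaling 7 biogenesis regulators were higher and 1 lower in each comparison, and 0 genes of the TCA cycle list, Pdha1 included, passed as lower at 32-weeks. The same rescaling gave 13, 13 and 15 higher and 2, 2 and 1 lower among carriers and transporters, and 17, 20 and 28 higher and 0 lower among the other assembly factors. The shares of all genes given above are on the FPKM scale and are no background for these TPM counts. TPM rescaling also moved all genes toward AΦ, so the counts do not show an excess in these lists. The mitochondrially encoded subunits were not analysed here, since only 2 of the 13 are listed and neither reached a mean of 1 FPKM.

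Whether the difference between AΦ and monocytes changed with time was tested in CD45.2 cells. Of the 82 members 1 passed (1.22%), against 7.88% of all genes. Ndufb7, a supernumerary complex I subunit, was at 20.4, 27.7 and 37.4 FPKM in AΦ and 24.4, 28.6 and 36.9 FPKM in monocytes at 4-weeks, and at 28.5, 35.6 and 44.5 FPKM and 17, 23.4 and 27.5 FPKM at 32-weeks. The groups overlapped at 4-weeks and not at 32-weeks, and the difference of the differences was 0.77 ± 0.22 (SE) with a limma adjusted p of 0.0255. The call was lost after TPM rescaling (0.60, limma adjusted p = 0.232), median-of-ratios scaling (0.71, adjusted p = 0.0552) and quantile normalization (0.57, adjusted p = 0.166), in a fit on the compared libraries only (adjusted p = 0.0686) and with all libraries numbered 2 left out (adjusted p = 0.0896). It was also lost with adjusted p-values from 0.053 to 0.060 without any one of FA replicate 1 or PM2.5 replicate 1 of TR-AΦ at 4-weeks, PM2.5 replicate 0 of TR-AΦ at 32-weeks, FA replicate 2 of monocytes at 4-weeks or PM2.5 replicate 1 of monocytes at 32-weeks. Between CD45.1 and CD45.2 cells at 32-weeks, 0 members passed in limma, against 1.08% of all genes, and 8 had an unadjusted p under 0.05, against 10.3% of all genes.

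Within AΦ, time, origin and exposure were each tested among the 18 AΦ libraries. From 4- to 32-weeks under FA, 0 members passed in TR-AΦ (0.804% of all genes) and 3 had an unadjusted p under 0.05 (12.2% of all genes). Under PM2.5 0 members passed either (1.22% of all genes), while 21 had an unadjusted p under 0.05 (20 higher and 1 lower, 15.5% of all genes). Some members did pass with the replicate number as a block, a fit given with the processing below. All 3 libraries at 32-weeks lay above all 3 at 4-weeks for 21 members and below for 4, against 9.35 and 8.42% of all genes. The median difference was 0.24 on the log2 scale, against 0.01 over all genes, and 62 of the 82 members had a value above 0, with 14 of 14 of complex V and 3 of 8 assembly factors at the ends of the range over complexes. Without PM2.5 replicate 1 at 4-weeks the median was 0.16. Sdhc came nearest, with 45.17, 52.3 and 49.9 FPKM at 4-weeks and 83.7, 67.7 and 69.4 FPKM at 32-weeks (0.57 ± 0.13 (SE), limma adjusted p = 0.0529). The time points are separate sets of mice and libraries, so that exposure length and age cannot be told apart.

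**Figure D4:**
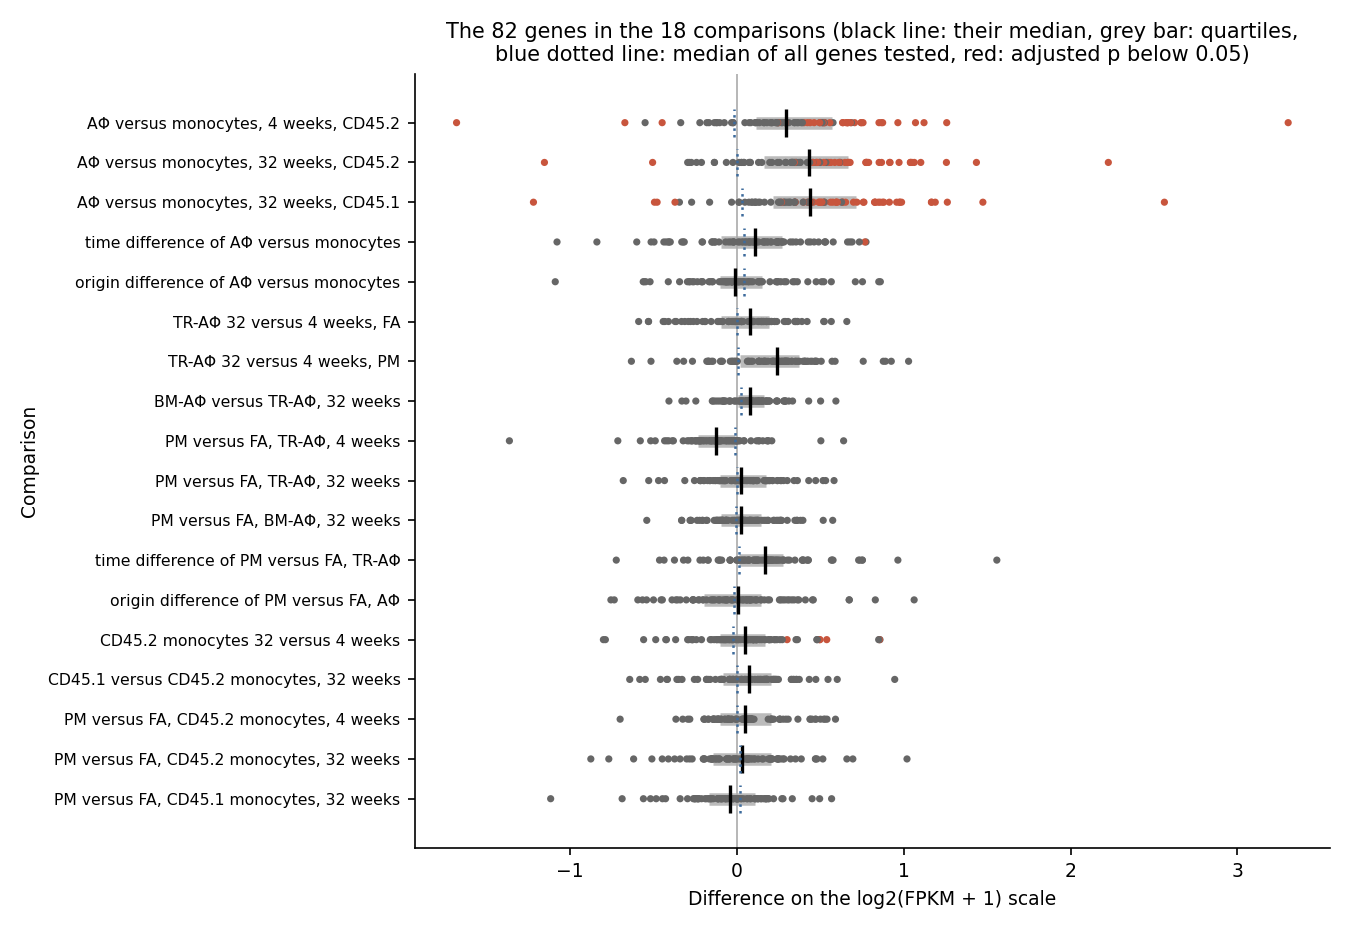
Difference of each of the 82 genes (x axis, log2(FPKM + 1) scale; points, red past the limma threshold; black line, median; grey bar, quartiles; dotted line, median of all genes) in each of the 18 comparisons (y axis). The 3 comparisons of AΦ with monocytes have medians of 0.30, 0.43 and 0.44, and those of origin, time and exposure lie between -0.13 and 0.24.

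BM-AΦ and TR-AΦ at 32-weeks, with 6 libraries each, differed in 0 members by limma (0.383% of all genes), and 3 had an unadjusted p under 0.05, all higher in BM-AΦ (8.22% of all genes). Sdhd was the 1 member with no overlap in that direction (1.10% of all genes). It was at 92.4, 99.1 and 118 FPKM (FA) and 113, 101 and 105 FPKM (PM2.5) in BM-AΦ, and at 78.4, 67.9 and 87.2 FPKM and 77.3, 87.2 and 67.4 FPKM in TR-AΦ (0.43 ± 0.11 (SE), limma adjusted p = 0.141). Of the 82 members 62 had a value above 0, with a median of 0.08 against 0.03 over all genes.

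PM2.5 against FA at 4-weeks gave 0 members past the threshold in TR-AΦ (0.00751% of all genes). A total of 7 had an unadjusted p under 0.05, all lower under PM2.5, against 3.31% of all genes, and 65 of 82 had a value below 0, with a median of -0.13 (all genes -0.01). All 3 PM2.5 libraries lay below all 3 FA libraries for 8 members and above for 0, against 3.28 and 2.37% of all genes. Ndufc1, a supernumerary complex I subunit, was at 29.6, 41.5 and 33.2 FPKM under FA and 14, 10.4 and 14.3 FPKM under PM2.5, with no overlap (-1.36 ± 0.31 (SE), limma adjusted p = 0.874). The library of TR-AΦ under PM2.5 with replicate number 1 had the lowest sum of all AΦ libraries (2711 FPKM), and without it the median was -0.04. The PM2.5 libraries at 4-weeks are also those of the comparison over time under PM2.5.

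Other comparisons of PM2.5 with FA gave no call. TR-AΦ at 32-weeks had 0 members past the limma threshold (0% of all genes) and 5 with an unadjusted p under 0.05 (3.24% of all genes), and BM-AΦ had 0 (0.0150%) and 2 (2.31%). The change of the PM2.5 effect with time gave 0 (0.00751%) and 5 (3.11%), and its difference between BM-AΦ and TR-AΦ 0 (0.0150%) and 1 (1.95%). In monocytes the counts were 0 (0.00751%) and 3 (2.25%) at 4-weeks, 0 (0%) and 4 (4.55%) in CD45.2 cells and 0 (0%) and 3 (4.90%) in CD45.1 cells at 32-weeks. With 3 libraries a group, the median SE of a member's PM2.5 difference was 0.22 in AΦ and 0.26 in monocytes on the log2 scale. Differences well above that size could also go uncalled, as Ndufc1 did in TR-AΦ at 4-weeks (-1.36 ± 0.31 (SE), limma adjusted p = 0.874). The absence of calls therefore does not exclude PM2.5 differences of that order.

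Among monocytes, 5 members rose in CD45.2 cells from 4- to 32-weeks and 0 fell (6.10% of members, against 15.3% of all genes). They were Ndufa12 (0.85 ± 0.23 (SE), limma adjusted p = 0.0244), Uqcr11 (0.54 ± 0.15 (SE), adjusted p = 0.0256), Ndufc2 (0.50 ± 0.13 (SE), adjusted p = 0.023), Sdhb (0.49 ± 0.15 (SE), adjusted p = 0.0393) and Atp5g3 (0.30 ± 0.10 (SE), adjusted p = 0.0496). All 5 had overlapping libraries (0 members without overlap, against 4.28% of all genes). Uqcr11, for example, ranged from 37.8 to 57 FPKM at 4-weeks and from 45.7 to 92.2 FPKM at 32-weeks. When 1 library was left out, 1522 to 2107 of all genes passed, and the member count was between 1 and 7. It was 1 without FA replicate 1 at 4-weeks or PM2.5 replicate 1 at 32-weeks, 2 without FA replicate 2 or PM2.5 replicate 1 at 4-weeks or FA replicate 2 at 32-weeks, and 3 without FA replicate 0 or PM2.5 replicate 2 at 4-weeks or FA replicate 0 at 32-weeks. In the same comparison 8 of 12 AΦ markers were higher and 2 lower, 4 of 11 monocyte markers were lower and 2 of 6 neutrophil markers were lower. The AΦ markers summed to between 418 and 740 FPKM at 4-weeks and between 435 and 1719 FPKM at 32-weeks, and the monocyte markers to between 3708 and 5013 and between 1364 and 3723 FPKM, and their part in the 5 calls was not tested. Monocytes of the 2 CD45 types, compared at 32-weeks, differed in 0 members by limma (0.812% of all genes), and 6 had an unadjusted p under 0.05 (10.5% of all genes).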

How the data were processed

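Bulk RNA-seq (RNeasy Micro, SMART-Seq Stranded kit) of 36 libraries was analysed. Per the study's methods reads were trimmed (TrimGalore), aligned with STAR to mm10 and quantified with Cufflinks on a GENCODE annotation, and the authors deposited FPKM values per gene. Read counts were not used here, so the absolute depth reached by each library is unknown. Groups follow the sample labels (12 groups of 3), and p-values measure the spread between these libraries.

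The 13307 of 27562 genes whose mean FPKM reached 1 were tested with limma 3.58.1 (R 4.3.3) on log2(FPKM + 1), with a mean per group, a variance trend and Benjamini-Hochberg adjustment over all genes tested, at 0.05. A fold change on that scale understates changes of low genes. AΦ (18 libraries), monocytes (18) or all 36 were fitted, giving 18 comparisons. 10 alternatives and leaving out each library were tried, and the fit was tested on simulated data. Annotation was GENCODE M21 and RefSeq (GRCm38.p6). Figures used matplotlib 3.10.9.

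The members and gene lists were chosen with earlier results of these data known. Genes named are, in each comparison, up to 3 per direction with the largest change among those past the threshold without overlap of libraries, the highest of each complex, the 3 lowest, isoform families, and Sdha to Sdhd and Cyc1. List genes named are among the 3 with the largest change in a comparison, and the text names further members of the 20 higher in all 3, and the member nearest to the threshold, chosen after their values were seen. One member that counts in the totals is not reported by name here.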

Additional observations from a re-analysis of the deposited data

Results flagged for a closer look

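One result met the criterion that an effect differs between groups by a test of the difference itself. The difference between AΦ and monocytes (CD45.2) in Ndufb7 changed from 4-weeks (-0.10) to 32-weeks (0.66), by 0.77 ± 0.22 (SE) on the log2(FPKM + 1) scale (limma, Benjamini-Hochberg adjusted p = 0.0255). All 6 AΦ libraries were above all 6 monocyte libraries at 32-weeks, and the libraries overlapped at 4-weeks. The call was lost under TPM rescaling (0.60, limma adjusted p = 0.232), median-of-ratios scaling (0.0552) and quantile normalization (0.166), in a fit on the compared libraries only (0.0686) and with all libraries numbered 2 left out (0.0896).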

How the results depend on the processing

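The counts of members called in AΦ against monocytes kept their direction under the 10 alternatives. TPM rescaling raised the count at 4-weeks to 59 and in CD45.1 cells at 32-weeks to 70, the medians there to 0.57 and 0.74, and the ratio of mean summed levels of AΦ over monocytes to 1.55. All genes moved toward AΦ under TPM too, and the matching shares of all genes are not given here. Quantile normalization gave a median of 0.50 at 4-weeks. The count for the time difference was 0 under TPM, median-of-ratios scaling, quantile normalization and a fit on the compared libraries only. The median of the origin difference was 0.19 under TPM. TR-AΦ over time under PM2.5 had a median of 0.16 under quantile normalization. In CD45.2 monocytes over time the count was 3 without a filter on low values, 11 under quantile normalization and 0 with all libraries numbered 2 left out. The matching shares of all genes are not given here, so these counts do not describe the members as a set. The PM2.5 median in 4-weeks monocytes was 0.21 under TPM. The cause was not tested.

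Whether replicate numbers pair the samples is not stated by the labels. In 34 pairs of groups same-numbered libraries had correlations of deviations from -0.09 to 0.21. A pair passed if all such correlations were over 0.1, and 0 pairs passed. For groups of the same exposure and time the mean same-numbered correlation ran from 0.00478 to 0.0796, and between FA and PM2.5 groups from -0.0319 to 0.136. The paper picked mice from each exposure and time group and sequenced both cell types, so libraries of the same exposure and time may share mice. This check cannot exclude that, and which libraries would belong together is not known. The main fits treat all libraries as separate samples and take no account of shared mice. With the replicate number as a block, 6 members were called in TR-AΦ over time under PM2.5 and 2 in the time difference, and all genes called rose from 162 to 499 and from 1049 to 1648. For TR-AΦ over time under FA they went from 107 to 212, and for BM-AΦ against TR-AΦ from 51 to 101.

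Leaving out each library in turn gave member counts of 0 to 3 for the time difference, while 784 to 1189 of all genes passed. For CD45.2 monocytes over time the member counts were 1 to 7, while 1522 to 2107 of all genes passed. Medians were 0.16 to 0.29 for TR-AΦ over time under PM2.5 and -0.21 to -0.036 for PM2.5 in TR-AΦ at 4-weeks. Under every setting and each left-out library, 13 of the 82 members stayed higher and Ndufaf7 stayed lower in all 3 comparisons of AΦ with monocytes. The share of all genes that did so is not given here, so this count describes single genes and not a trait of the set. In the main fit 15.7% of all genes were higher and 16.8% lower in all 3.

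Counts over all genes moved over 1.5 times elsewhere too. Under TPM they were 91 for TR-AΦ over time under PM2.5, 67 under FA and 165 for CD45.1 against CD45.2 monocytes (108 before). With all libraries numbered 2 left out they were 43 for TR-AΦ over time under PM2.5, 23 for BM-AΦ against TR-AΦ, 75 for the origin difference (144 before), 965 for CD45.2 monocytes over time (2032 before) and 42 for CD45.1 against CD45.2 monocytes. A fit on other libraries gave 94 for BM-AΦ against TR-AΦ and 359 for CD45.1 against CD45.2 monocytes. The PM2.5 comparisons went from 0 to 2 genes to at most 12. Leaving out 1 library gave between 40 (without FA replicate 0 at 32-weeks) and 146 genes (without FA replicate 2 at 4-weeks) for TR-AΦ over time under FA, and between 53 (without PM2.5 replicate 0 at 32-weeks) and 309 (without PM2.5 replicate 0 at 4-weeks) under PM2.5. It gave between 19 (without TR-AΦ FA replicate 1) and 76 (without BM-AΦ FA replicate 1) for BM-AΦ against TR-AΦ, between 59 (without CD45.1 PM2.5 replicate 0) and 190 (without CD45.2 FA replicate 2) for CD45.1 against CD45.2 monocytes, and between 93 (without BM-AΦ PM2.5 replicate 2) and 223 (without CD45.2 monocytes FA replicate 2) for the origin difference, so the percentages of all genes for these comparisons carry that range.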
